A study of Mus musculus with 3 samples.

Results

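Collagen genes were taken as all probe sets whose platform annotation gives exactly 1 gene symbol, with that symbol of the form Col, a type number, a and a chain number. A probe set is a group of short array oligonucleotides that together report 1 transcript. The rule found 82 of the 45101 probe sets on the array, standing for 42 of the 18193 genes with such a probe set. They comprise 11 fibrillar collagen genes (21 probe sets), 6 basement membrane genes of type IV (12 probe sets) and 25 other collagen genes (49 probe sets).

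The cells were NIH3T3, an immortalised mouse embryonic fibroblast line, from a screen for RNA interference that raises resistance to oxidative stress. Total RNA was profiled on 3 single-colour arrays. On 2 of them the RNA came from cells carrying the vector alone (empty vector 1 and 2, grown in DMEM with calf serum, untreated, labelled as giving basal expression), and the other array held cells expressing an shRNA, a hairpin RNA that silences its target, here retinol saturase (Retsat). That array is numbered 2 and labelled as highly resistant to the organic peroxide t-BHP. No growth conditions or treatment are stated for the RetSat shRNA cells, and the sources used here do not say whether they were a clone or a pool, nor whether the controls were grown as separate cultures, so that the spread between the controls may be technical. The empty-vector arrays are called the controls below, and values given for them are those of replicates 1 and 2 in turn.

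Collagens are secreted proteins of 3 chains wound into a triple helix, each chain encoded by a gene of its own. Fibrillar collagens build the tensile fibrils of connective tissue and are the main matrix product of fibroblasts. Type IV chains form the sheet-like network of basement membranes, and the remaining types coat fibrils, form microfilaments and networks, anchor epithelia or span the cell membrane.

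Promoter windows from RefSeq (GRCm38.p6), which run from 250 bases before to 50 after a transcript start, were matched for 33 of the 42 genes (36 windows). The genes Col1a1, Col2a1, Col4a3, Col5a2, Col9a3, Col12a1, Col14a1, Col22a1 and Col26a1 were not matched. The 250 bases before the start are shown for Col1a2, which was level on the 3 arrays, for Col3a1 and Col27a1, the fibrillar genes farthest apart between the empty-vector arrays, and for the neighbours Col4a5 and Col4a6. Capitals mark the CCAAT box, the GC box GGGCGG and the TATA form TATAAA, on either strand. The windows lie at chr6:4505368-4505617 (plus strand), chr1:45311288-45311537 (plus), chr4:63215162-63215411 (plus), chrX:141475169-141475418 (plus) and chrX:141474077-141474326 (minus), in the order shown.
Col1a2: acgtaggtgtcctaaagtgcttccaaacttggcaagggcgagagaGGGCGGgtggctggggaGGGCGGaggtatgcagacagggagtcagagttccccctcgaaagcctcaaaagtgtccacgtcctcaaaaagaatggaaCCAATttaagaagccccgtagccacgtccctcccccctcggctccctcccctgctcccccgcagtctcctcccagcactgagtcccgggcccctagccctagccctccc
Col3a1: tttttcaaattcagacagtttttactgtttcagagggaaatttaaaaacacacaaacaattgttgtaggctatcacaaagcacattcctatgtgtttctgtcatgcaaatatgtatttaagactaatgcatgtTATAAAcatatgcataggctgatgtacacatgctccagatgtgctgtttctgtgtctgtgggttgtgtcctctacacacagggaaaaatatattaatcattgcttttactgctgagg
Col27a1: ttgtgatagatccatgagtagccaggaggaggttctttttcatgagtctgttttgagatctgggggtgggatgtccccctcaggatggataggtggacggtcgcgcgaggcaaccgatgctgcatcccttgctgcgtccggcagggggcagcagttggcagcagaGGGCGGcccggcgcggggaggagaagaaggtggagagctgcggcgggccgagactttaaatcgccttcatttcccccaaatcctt
Col4a5: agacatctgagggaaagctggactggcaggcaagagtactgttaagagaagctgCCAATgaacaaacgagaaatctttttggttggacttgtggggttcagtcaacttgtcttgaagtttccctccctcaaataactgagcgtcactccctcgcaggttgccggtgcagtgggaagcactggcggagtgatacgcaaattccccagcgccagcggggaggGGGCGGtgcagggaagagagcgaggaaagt
Col4a6: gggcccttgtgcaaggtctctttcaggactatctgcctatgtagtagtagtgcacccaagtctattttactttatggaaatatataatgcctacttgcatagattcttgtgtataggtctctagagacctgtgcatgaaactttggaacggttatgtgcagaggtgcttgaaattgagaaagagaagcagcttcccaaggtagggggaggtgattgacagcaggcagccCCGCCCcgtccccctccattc

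The G and C content of these stretches was 62.0% for Col1a2, 35.2% for Col3a1, 59.6% for Col27a1, 54.0% for Col4a5 and 47.6% for Col4a6. The Col3a1 stretch held the TATA form, starting 117 bases before the transcript start, and neither of the other motifs marked. The Col1a2 stretch held the CCAAT box 109 bases and the GC box 205 and 188 bases before the start. The GC box, on either strand, stood in 22 of the 36 collagen windows (61.1%), compared with 35.7% of all 32851 windows. On the same count the CCAAT box stood in 13 (36.1%, compared with 37.4%), the TATA form in 5 (13.9%, compared with 13.6%) and the E-box form CANNTG in 18 (50%, compared with 72.3%). The CCAAT box and the E-box form can share letters, and each motif was counted on its own. A match to these letters is a description of the window, not a binding site.

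The deposited signals had been scaled to a common level, with a trimmed mean of 250 on each array, and ran from 0.1 to 30189.8. Differences are given as log2(signal + 10.2), where 10.2 is the 25th percentile of all signals, which understates the change of dim genes. A gene was read from its brightest probe set, and 10843 genes whose mean reached the median of all probe sets were tested. Retsat itself read 416 and 496 on the controls and 69.5 on RetSat shRNA, a log2 difference of -2.54 from the controls' mean. Even Retsat did not pass the limma test described below, so a gene that fails that test cannot be called unchanged. The empty-vector arrays differed more from each other (SD of the log2 difference 0.739 over the tested genes) than RetSat shRNA differed from empty vector 2 (SD 0.336), and the median difference from empty vector 1, over every gene tested, was 0.136 for empty vector 2 and 0.141 for RetSat shRNA. Each collagen difference below is to be read against those values. The arrays measure bulk RNA, in which fewer cells of a kind and less RNA per cell cannot be told apart.

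Of the 42 collagen genes, 21 were bright enough to be tested. In limma's moderated test with Benjamini-Hochberg adjustment over all tested genes, 0 of the 21 passed (background 0% of all tested genes, 0 of 10843). At an unadjusted p under 0.05, 0 of the 21 passed as well (background 0.996%), and the smallest unadjusted p, for Col18a1, was 0.0942 (adjusted p = 1 in limma). A gene's own spread in this test comes from the 2 controls alone (1 residual degree of freedom). The moderation draws it towards a value shared by all tested genes, which largely sets the SE. The SE was 0.5 for Col1a2, with controls 0.026 log2 apart, and 0.537 for Col3a1, with controls 0.736 apart. The single shRNA array is taken to have the same spread. A rule of size was therefore used beside the test. It asks for a difference of at least 2-fold, in 1 direction, from each control. By that rule 0 of the 21 genes were lower (background 0.498%) and 0 were higher (background 0.0922%). Over all genes the rule took 54 lower and 10 higher, which became 41 and 20 after centring each array on its median and 43 and 24 after quantile normalization.

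**Figure D1:**
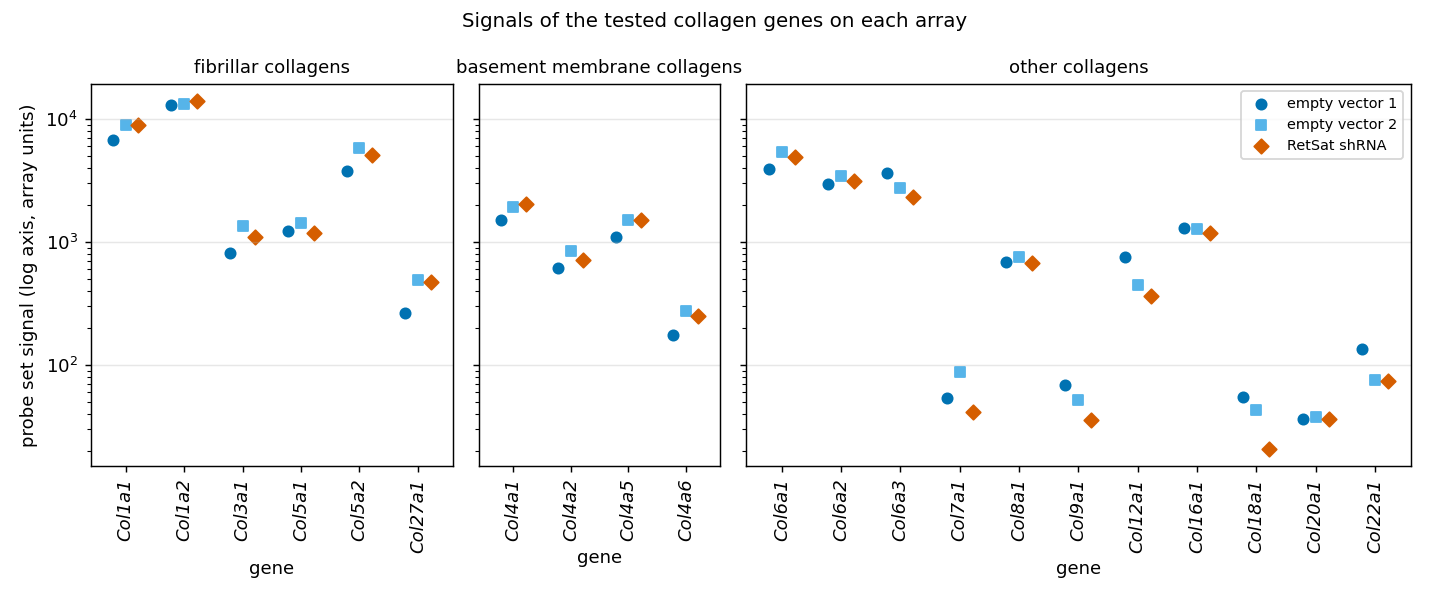
Signal of each tested collagen gene (log axis, array units) on empty vector 1 (circles), empty vector 2 (squares) and RetSat shRNA (diamonds), from the brightest probe set of each gene, with each point 1 array and the genes grouped by collagen class. In 9 of the 10 fibrillar and basement membrane genes the circle is the lowest point (52.6% of all tested genes). The diamond is lowest in 9 of the 11 other collagen genes (25.4%). These include Col9a1 and Col18a1, which reached the median signal only on the controls.

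Among the fibrillar collagens, 6 of 11 genes were tested, and the low array was mostly empty vector 1 rather than the shRNA array. Col1a1, the major chain of type I collagen, read 6803 and 8929 on the controls and 9039.5 on RetSat shRNA. Its RetSat shRNA signal lay 0.018 log2 above empty vector 2 and 0.41 above empty vector 1, so the empty-vector arrays were farther apart from each other (0.39) than RetSat shRNA was from empty vector 2. Col1a2, the partner chain in the type I trimer, read 13012 and 13247 on the controls and 14057 on RetSat shRNA. It was the steadiest fibrillar gene, with 0.026 log2 between the empty-vector arrays and 0.11 and 0.086 between RetSat shRNA and each of them. In limma the log2 difference was 0.21 (SE 0.51) for Col1a1 and 0.098 (SE 0.5) for Col1a2, both at an adjusted p of 1.

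Col3a1, whose homotrimer is mixed with type I collagen in elastic tissues, read 811 and 1358 on the controls and 1094 on RetSat shRNA. Its RetSat shRNA signal fell between the empty-vector arrays, which differed by 0.74 log2. Col5a2, a chain of the type V collagen that sits within type I fibrils and limits their diameter, read 3773 and 5820.2 on the controls and 5133 on RetSat shRNA, again between them. Col3a1 and Col5a2 are neighbouring protein-coding genes on chromosome 1, and both had empty vector 1 lowest and empty vector 2 highest. Col5a1, which joins Col5a2 in the type V trimer, read 1236 and 1429 on the controls and 1181 on RetSat shRNA. It was the 1 fibrillar gene with RetSat shRNA below both empty-vector arrays, with log2 differences of -0.066 and -0.27. Col27a1, a fibrillar chain best known from cartilage, read 264 on empty vector 1, 487 on empty vector 2 and 471 on RetSat shRNA. The difference of 0.86 log2 between its empty-vector arrays was the largest among the tested collagens, while the difference of RetSat shRNA from empty vector 2 was -0.047.

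On their brightest probe sets all 4 tested type IV genes had empty vector 1 lowest (background 52.6% of all tested genes). Col4a1 and Col4a2 encode the chains of the common basement membrane network. Col4a1 read 1506 and 1946 on the controls and 2053 on RetSat shRNA, and Col4a2 read 611 and 849 on the controls and 711 on RetSat shRNA. The log2 difference of RetSat shRNA from empty vector 2 was thus 0.077 for Col4a1 and -0.25 for Col4a2. The genes lie on opposite strands of chromosome 8, with RefSeq starts 21 bases apart and the starts of the transcripts overlapping. Their promoter windows share 78 bases. Col4a5 and Col4a6 encode chains of the network found in kidney and in smooth muscle and epidermal basement membranes. They stand head to head on the X chromosome without overlap, with a gap of 1343 bases between their starts. Col4a5 read 1109 and 1508 on the controls and 1522 on RetSat shRNA, and Col4a6 read 175 and 275 on the controls and 249 on RetSat shRNA. For all 4 genes the empty-vector arrays differed by more (0.37 to 0.62 log2) than RetSat shRNA and empty vector 2 did (background 75.4%). Limma's log2 differences ran from -0.019 (SE 0.515, Col4a2) to 0.26 (SE 0.509, Col4a1), each at an adjusted p of 1.

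The other collagens behaved less alike on empty vector 1, and all 11 that were tested read lower on RetSat shRNA than on empty vector 2 (background 50%). That count became 9 of 11 after median centring (background 37.9%), 9 of 11 after quantile normalization (background 49.3%) and 8 of 10 with probe sets averaged (background 51.1%). The 11 include Col9a1 and Col18a1, which reached the median signal only on the controls, and Col20a1, which lay 0.046 log2 below empty vector 2. Type VI collagen forms beaded microfilaments close to the cell surface from the chains of Col6a1, Col6a2 and Col6a3. Col6a1 read 3903 and 5387 on the controls and 4933 on RetSat shRNA. Col6a2 read 2951 and 3422 on the controls and 3134 on RetSat shRNA. On RetSat shRNA both lay between the controls, with a log2 difference of -0.13 from empty vector 2. Col6a3, the remaining chain, ran the other way between the controls and read 3618 on empty vector 1, 2741 on empty vector 2 and 2314 on RetSat shRNA. RetSat shRNA thus differed by -0.64 log2 from the first control and by -0.24 from the second for Col6a3, and limma gave -0.44 (SE 0.511, adjusted p = 1).

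Fibril-associated collagens, which decorate the surface of fibrils and do not form fibrils themselves, ranged from level to about 2-fold apart. Col12a1 read 755 on empty vector 1, 452 on empty vector 2 and 367 on RetSat shRNA, in that descending order, and its second probe set above the filter read 366, 173 and 169. For the brighter probe set RetSat shRNA differed by -1.02 log2 from the first control and by -0.29 from the second, and limma gave -0.66 (SE 0.536, adjusted p = 1). Col22a1, a collagen of tissue junctions, also stood high on empty vector 1, at 136 compared with 75.1 on empty vector 2 and 73.8 on RetSat shRNA. Col16a1 was level at 1295 and 1285 on the controls and 1178 on RetSat shRNA. Col9a1, a cartilage chain, was dim at 68.3 and 51.5 on the controls and 35.6 on RetSat shRNA. Col20a1 was dim and level at 36.3, 37.7 and 36.2. Averaging all probe sets of a gene, dim ones included, took the log2 difference from the controls' mean from -0.604 to -0.008 for Col9a1. The same averaging took it from -0.412 to 0.252 for Col22a1, while Col12a1 stayed lower at -0.792.

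Of the remaining tested genes, Col8a1, a chain of the hexagonal network under endothelia, read 694 and 754 on the controls and 670.4 on RetSat shRNA. Col7a1, the chain of the anchoring fibrils that fasten epidermis to dermis, read 53.6 and 87.0 on the controls and 41.8 on RetSat shRNA. Col18a1, a multiplexin of basement membrane zones whose C-terminal fragment is endostatin, read 55.3 and 43.4 on the controls and 20.9 on RetSat shRNA. RetSat shRNA differed by -1.07 log2 from the first control and by -0.79 from the second, and the controls by -0.29 (second minus first), and limma gave -0.93 (SE 0.506, unadjusted p = 0.0942, adjusted p = 1). The other Col18a1 probe set read 69.3 and 47.0 on the controls and 8.2 on RetSat shRNA, with log2 differences of -2.11 and -1.64. On the controls both probe sets were dim, within 2-fold of the median signal of all probe sets (39.4 and 37.9), and on RetSat shRNA both read below that median (35.7), the second also below the offset of 10.2.

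**Figure D2:**
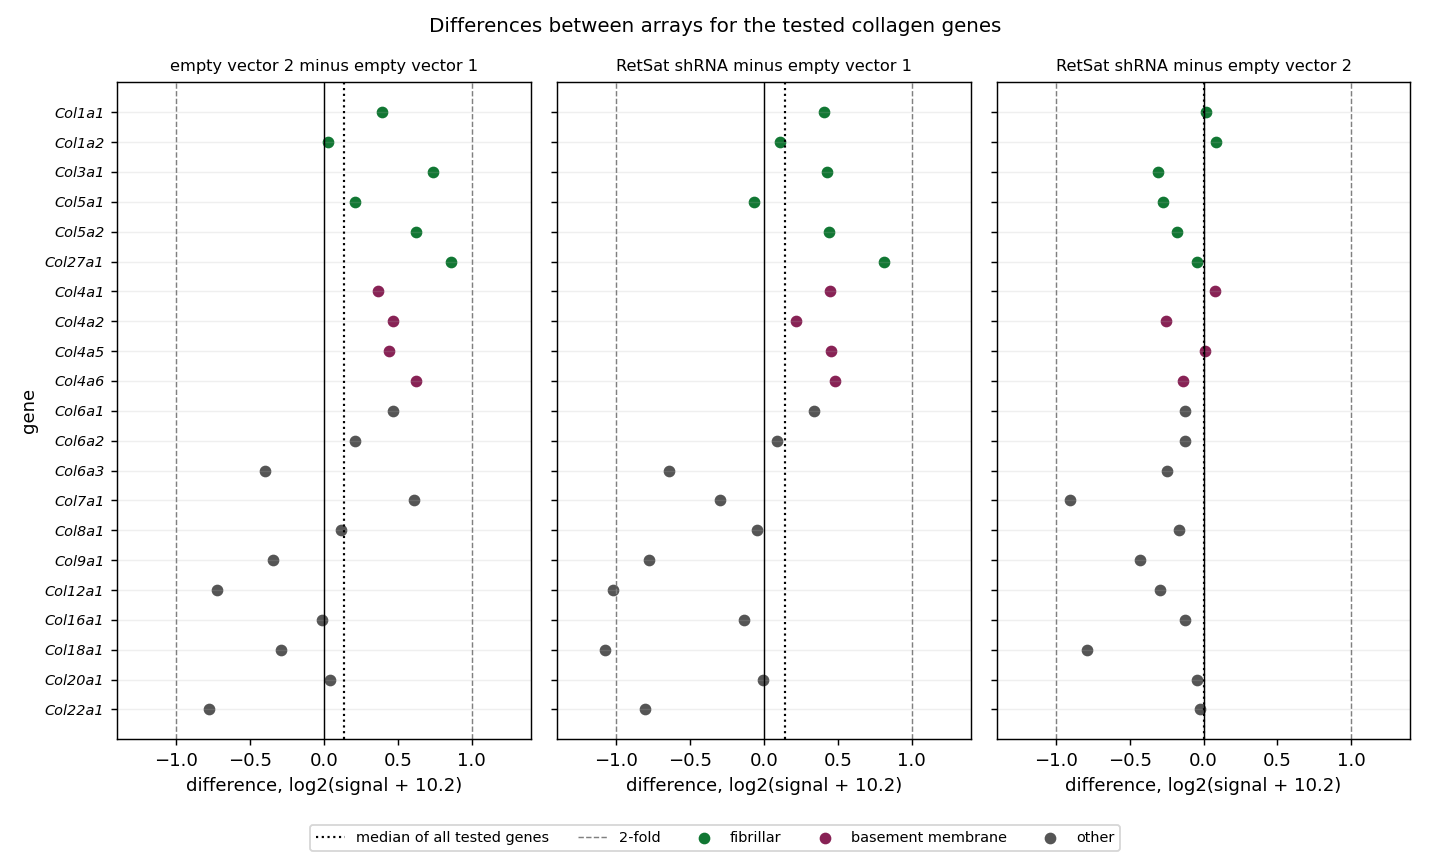
Difference in log2(signal + 10.2) for each tested collagen gene between empty vector 2 and empty vector 1 (left), RetSat shRNA and empty vector 1 (middle) and RetSat shRNA and empty vector 2 (right); the panels share arrays, dashed lines mark 2-fold and dotted lines the median of all tested genes. All 10 fibrillar and basement membrane genes lie right of 0 in the left panel, and 17 of the 21 genes lie left of 0 in the right panel.

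Counted over the 21 tested genes, empty vector 1 was the lowest array for 11, close to the background of 52.6% of all tested genes, and it was the highest for 6 (background 34.2%). Empty vector 2 read above empty vector 1 for 15 of the 21 (background 59.3%), and for 13 it was closer to RetSat shRNA than to empty vector 1 (background 75.4%). The 11 with empty vector 1 lowest comprised 5 of 6 fibrillar and 4 of 4 basement membrane genes but 2 of 11 others, Col6a1 and Col6a2. After centring each array on its median, empty vector 1 was lowest for all 10 fibrillar and basement membrane genes (background 57.3%), after quantile normalization for 8 (background 57.4%), and with a gene's probe sets averaged for 7 (background 47.6%). Over the single probe sets of these genes it was lowest for 11 of 21 (background 46.2%), so the count of 9 of 10 rests on taking the brightest probe set. None of the 21 genes differed at least 2-fold between the empty-vector arrays, where 3.41% of all tested genes were higher on empty vector 2 and 9.32% lower. The median difference of empty vector 2 from empty vector 1 was 0.51 for fibrillar, 0.45 for basement membrane and -0.011 for other collagens, compared with 0.136 for all tested genes.

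RetSat shRNA was lower than both empty-vector arrays for 10 of the 21 genes (background 25.4%) and higher than both for 4 (background 34.4%). The 10 were Col5a1 and 9 of the 11 other collagens, and the 4 were Col1a1, Col1a2, Col4a1 and Col4a5. Of these 4, only Col4a5 again read above both controls on its other probe set. The second Col1a1 probe set read 948 and 1215 on the controls and 1146 on RetSat shRNA. Averaging probe sets took the Col1a2 log2 difference from the controls' mean from 0.098 to -0.141. Against empty vector 2 alone 17 of the 21 were lower (background 50%), or 14 after median centring (background 37.9%), and 0 were at least 2-fold lower (background 1.01%) or higher (background 0.719%). Against empty vector 1 alone 10 were lower (background 40.9%), and Col12a1 and Col18a1 were at least 2-fold lower (background 10.2%). Col18a1 and Col9a1, both among these 10, reached the median signal on the controls and not on RetSat shRNA, so they passed the filter through the controls, where they are high, and their place in these counts is no support for a direction. The median over the 21 genes was -0.14 log2 against empty vector 2, where that of all tested genes was 0, and 0.087 against empty vector 1, where it was 0.141. Relative to the controls' mean it was -0.020 over all 21, 0.12 for fibrillar, 0.20 for basement membrane and -0.41 for other collagens, compared with 0.067 for all tested genes. The median of the other collagens was -0.17 without replicate 1 of the empty vector, -0.12 with a filter at the 75th percentile of signal, -0.19 with no filter, -0.24 after quantile normalization and -0.17 with probe sets averaged. Leaving out the first control turned the fibrillar median to -0.11 and that of the basement membrane genes to -0.063, and leaving out the second made them 0.42 and 0.45. With probe sets averaged these medians were -0.025 and 0.058, after quantile normalization 0.028 and 0.221, and after median centring 0.205 and 0.292. The count below both arrays changed with the filter and the scaling. It was 5 of 16 (4 of them other collagens) with a filter at the 75th percentile of signal (background 22.7%), and 6 of 21 with each array's median set equal, where the background was 18.3%. No test was made of the collagens as a group, and the differences from each empty-vector array share the RetSat shRNA array.

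Where several probe sets of a gene passed the filter, they gave a second reading from the same arrays. Of 13 such genes with 28 probe sets, 7 had all their probe sets on the same side of the empty-vector mean and 9 agreed in the sign of the difference between the empty-vector arrays. Col12a1, Col18a1, Col1a1, Col27a1, Col4a1, Col4a5 and Col6a2 were the 7. The same counts were not made over all tested genes, so the agreement cannot be set against a background. Col4a6 disagreed most. On its brighter probe set RetSat shRNA lay between the controls, whereas the other read 227 and 232 on the controls and 111 on RetSat shRNA, with log2 differences of -0.97 and -0.99, just short of 2-fold on this scale. Col8a1 read 589 and 645 on the controls and 765 on RetSat shRNA on its second probe set, higher than both controls where the first was lower. For Col1a2 the second probe set was level at 5992, 6090.1 and 5866, and a dimmer one read 79.9, 104.8 and 62.9. For Col5a2, Col5a1, Col4a1 and Col4a5 the probe sets disagreed in the order of the empty-vector arrays. Empty vector 1 was not the lowest array on the second probe set of Col4a1, Col4a5 or Col4a6, and Col4a2 had a single probe set. Nor was it lowest on the other probe sets of Col1a2 or of Col3a1, whose dimmer one read 58.4, 94.2 and 57.4. The second Col5a2 probe set read 405 and 354 on the controls and 378 on RetSat shRNA, the second Col4a1 probe set 553, 441 and 498, and the second Col4a5 probe set 304, 296 and 312. Of the other Col5a1 probe sets, 1 read 454, 474 and 397 and 1 read 106, 74.4 and 92.1. Taken singly, 36 collagen probe sets passed the filter, and empty vector 1 was lowest for 15 of them. The background was 46.2% of the 19518 probe sets with 1 gene symbol past the filter. Of the 36, 1, of Col18a1, was past 2-fold below both controls on RetSat shRNA (182 of the 19518 were).

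**Figure D3:**
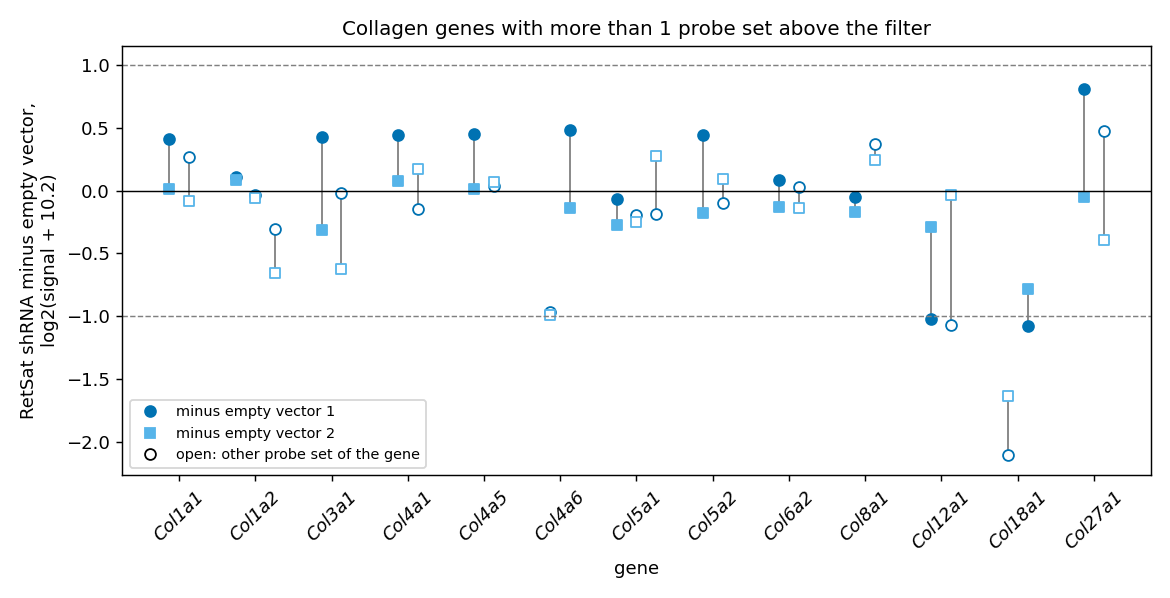
RetSat shRNA minus empty vector 1 (circles) and minus empty vector 2 (squares), in log2(signal + 10.2), for every probe set above the filter of the 13 collagen genes with several; filled points are the brightest probe set, open points the others, grey lines join the values of a probe set and dashed lines mark 2-fold. The open points of Col18a1 lie at -2.11 and -1.64, and those of Col4a6 at -0.97 and -0.99, away from its filled points.

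The other 21 collagen genes did not reach the filter. Their brightest probe sets ran from 1.1 to 43.3 over the 3 arrays, and no direction is given for them. They include the cartilage genes Col2a1, Col9a2, Col9a3, Col10a1, Col11a1 and Col11a2, the kidney and lung basement membrane genes Col4a3 and Col4a4, the fibrillar Col5a3 and Col24a1, and the transmembrane Col13a1, Col17a1, Col23a1 and Col25a1. Beside these stood Col6a4, Col6a5, Col8a2, Col14a1, Col15a1, Col19a1 and Col26a1. Just 3 of the 21 reached the median signal on any array. Col4a3 read 43.3 on empty vector 2 but 5.3 on empty vector 1 and 15.6 on RetSat shRNA, and Col17a1 read 40.4 on RetSat shRNA with 30.8 and 27.3 on the empty-vector arrays. Col19a1 read 32.2 and 38.0 on the controls and 6.0 on RetSat shRNA.

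Genes that make collagen ready for secretion were read beside the collagens. Of 20 chaperones and modifying enzymes on the array, 18 were tested and 0 passed limma (adjusted p = 1 for each). For 14 of the 18 RetSat shRNA was closer to empty vector 2 than the controls were to each other (background 75.4%). RetSat shRNA exceeded both empty-vector arrays for 8 (background 34.4%) and lay below both for 2 (background 25.4%), and the list's median was 0.35 log2 against empty vector 1 and 0.077 against empty vector 2, compared with 0.141 and 0 over all tested genes. P4ha3, a catalytic subunit of the prolyl hydroxylase that stabilises the triple helix, read 60.4 and 49.9 on the controls and 105.7 on RetSat shRNA. Its sister subunit P4ha1 read 888 on empty vector 1, 412 on empty vector 2 and 377 on RetSat shRNA. Plod2, a lysyl hydroxylase that prepares collagen for cross-linking, read 427 and 495 on the controls and 644 on RetSat shRNA. P3h3 read 343, 383 and 470 and P3h4 read 1025, 1634 and 1836 in the same order. Serpinh1, the collagen chaperone HSP47, read 6199 and 7721 on the controls and 8513 on RetSat shRNA. Mia3, which helps to load procollagen into transport carriers, read 1321 on empty vector 1, 565 on empty vector 2 and 640.0 on RetSat shRNA. Serpinh1, P4ha1 and Mia3 were chosen after their values were seen.

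Of 10 genes that process or cross-link collagen outside the cell, 6 were tested and 0 passed limma. RetSat shRNA exceeded both controls for 4 of the 6 (background 34.4%) and lay below both for 0 (background 25.4%). Pcolce, an enhancer of procollagen C-proteinase, read 11852 and 16286 on the controls and 17078 on RetSat shRNA. Bmp1, the C-proteinase itself, read 187 and 191 on the controls and 217 on RetSat shRNA. Loxl1 read 4678, 6699 and 6837 and Loxl4 read 118, 119 and 143, both lysyl oxidase family enzymes of cross-linking. Pcolce and Loxl1 exceeded empty vector 2 by just 0.068 and 0.029 log2. With probe sets averaged, the log2 difference from the controls' mean went from 0.188 to 0.01 for Bmp1 and from 0.251 to -0.024 for Loxl4. On the same averaging Pcolce stayed at 0.297 and Loxl1 rose from 0.288 to 0.591. Of the 8 collagen receptors on the array, 5 were tested and 0 passed limma. Ddr2, a receptor tyrosine kinase for fibrillar collagen, read 892 and 762 on the controls and 665 on RetSat shRNA, while the platelet receptor Gp6 was dim at 19.3, 36.6 and 53.5. Gp6 reached the median signal only on RetSat shRNA, so it passed the filter through the array where it is high. Its value is no support for a direction. Ddr1, chosen after its values were seen, read 599 on empty vector 1, 1935 on empty vector 2 and 1810 on RetSat shRNA.

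**Figure D4:**
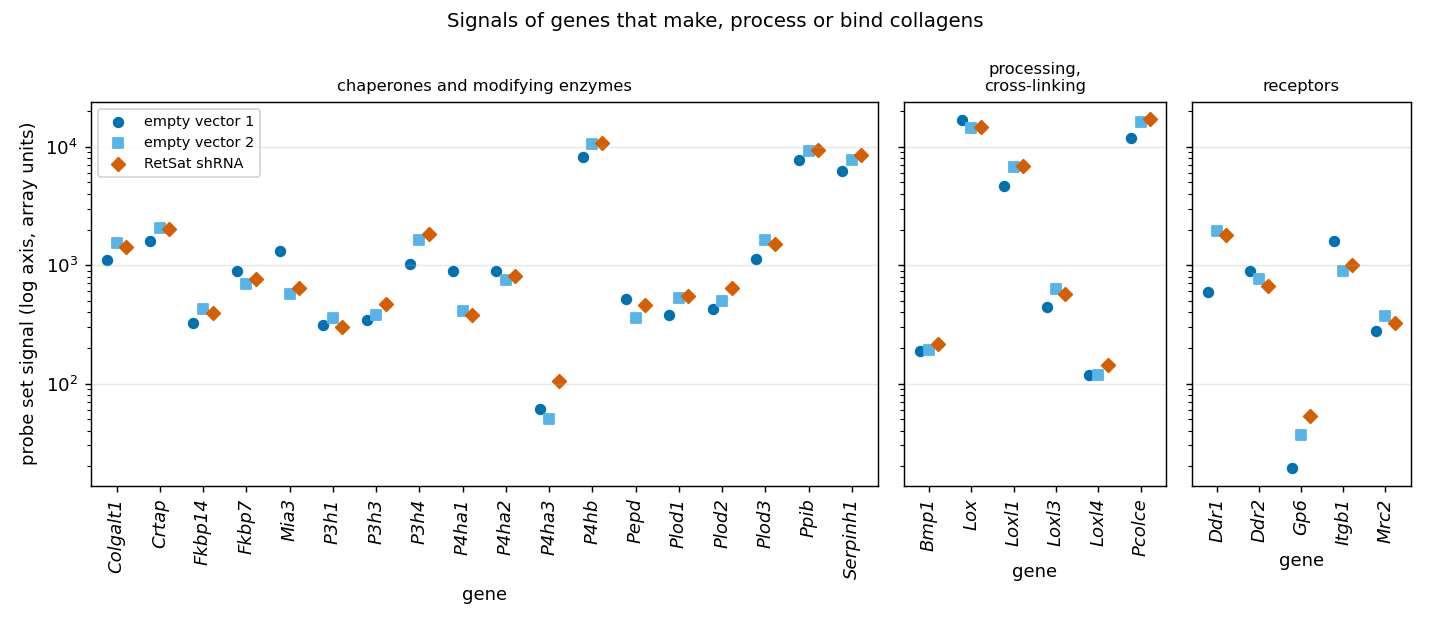
Signal (log axis, array units) on empty vector 1 (circles), empty vector 2 (squares) and RetSat shRNA (diamonds) of the tested genes that modify and fold, process and cross-link, or bind collagens, with each point 1 array. P4ha3 stands highest on RetSat shRNA at 105.7, and Ddr1 stands lowest on empty vector 1 at 599.

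Markers of other cell types were checked beside the collagens. All 7 fibroblast markers on the array passed the filter, from 1287 (Pdgfrb on empty vector 1) to 19516 (S100a4 on RetSat shRNA), with summed signals of 65080.5 and 55271 on the controls and 57288 on RetSat shRNA. Of the endothelial and skeletal muscle markers 0 of 4 passed in each list. The endothelial ones ran from 1.2 to 69.8, with Pecam1 at 3.5 or less, Cdh5 at 10.5 and 36.6 on the controls and 16.6 on RetSat shRNA, and Kdr at 37.3 and 8.6 on the controls and 69.8 on RetSat shRNA. Their summed signal was 51.6 and 71.4 on the controls and 91.3 on RetSat shRNA. The muscle ones ran from 1.8 (Myog) to 48.4 (Ckm), with sums of 73.8 and 108.2 on the controls and 87.3 on RetSat shRNA. Ptprc of blood cells and Pparg of adipocytes stayed at 15.2 or less. Chondrocyte markers were mixed, since Sox9 read 571, 1012 and 883 while Acan, Comp and Matn1 did not pass, and the summed signal was lowest on empty vector 1 (618 compared with 1083 and 977). Of the 4 myofibroblast markers on the array, 2 passed. Acta2 read 1489, 2391 and 2332 and Tagln 38.4, 166 and 198, with empty vector 1 lowest in both (background 52.6% of all tested genes). Cnn1 (8.1, 17.7 and 18.7) and Myh11 (18.4, 8.1 and 20.7) did not pass, and Myh11 was lowest on empty vector 2. Of the epithelial, blood cell and adipocyte markers 2 of 5, 1 of 4 and 1 of 3 passed (Epcam, Krt8, Cd68 and Fabp4), with summed signals of 198 to 218, 168 to 177 and 342 to 495. The part of these markers in the collagen differences was not tested.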

How the data were processed

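Of the 3 arrays, 2 held empty-vector and 1 RetSat shRNA cells, grouped by title. The authors deposited 1 linear intensity per probe set and array, from RNA that per the labels was biotin-labelled. The software and the summarisation are steps not given in the sources used here. The trimmed means were equal, so no further normalization was applied. The number of arrays limits the precision, and no detection calls were used.

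Gene names came from the platform annotation, checked by gene ID against the annotation of GRCm38.p6 (0 symbols changed). An offset of 10.2 was added before log2. Genes were fitted with limma 3.58.1 (R 4.3.3, lmFit and eBayes, two-sided, Benjamini-Hochberg threshold 0.05) over all 3 arrays, which was tested on simulated data. The rule of size asks for 2-fold or more from each control. Named are all tested collagens, untested ones at the median signal on any array, up to 4 members of each of 3 lists (collagen modification, processing, receptors) ranked by the smaller difference, and a few genes marked as picked from their values. Marker lists were also read. Members, lists and tests were chosen with earlier results of these data known. Alternatives changed the offset, filter, scaling, probe set rule, variance prior and arrays used.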

Additional observations from a re-analysis of the deposited data

How the results depend on the processing

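No paired analysis was possible, since the RetSat shRNA group has 1 array, and the labels do not say what its number 2 stands for. In limma 0 collagen genes passed under each of the 10 alternatives run (all genes: 7 with a robust variance prior, 1 with the arrays centred on their medians, 0 in the others). The count 2-fold or more from both controls was 0, and became 1 with an offset of 1 (Col18a1), 1 with a gene's probe sets averaged (Col18a1), 1 with probe sets taken singly, and 4 with no filter (Col2a1, Col6a4 and Col15a1 higher, Col19a1 lower, all dim). Leaving out an empty-vector array gave 0 without replicate 1 and 2 without replicate 2 (Col12a1 and Col18a1), and turned the fibrillar median (0.12) to -0.11 without replicate 1 and 0.42 without replicate 2, and the basement membrane median (0.20) to -0.063 and 0.45. Over all genes the rule took 54 lower and 10 higher, compared with 88 and 22 with an offset of 1, 6 and 1 with an offset of 50, 414 and 386 with no filter, 1 and 0 with the filter at the 75th percentile, 30 and 13 with probe sets averaged, and 182 and 29 with probe sets singly. The count at least 2-fold apart between the empty-vector arrays was 0, and became 5 with no filter and 1 with probe sets singly. The share of all genes or probe sets was not counted under those alternatives, so these counts have no background. The count below both empty-vector arrays was 10 of 21, and became 17 of 42 with no filter (28.9% of all genes), 17 of 36 probe sets singly (29.2%), 5 of 16 with the filter at the 75th percentile (22.7%) and 6 of 21 with the arrays centred (18.3%). Empty vector 1 was lowest for 11 of 21, and for 21 of 42 with no filter (45.1%). The median of empty vector 2 minus empty vector 1 was 0.21, and 0.38 over the 16 genes with the filter at the 75th percentile. Counts on all probe sets singly, below both arrays and with empty vector 1 lowest were added after seeing the data. Col9a1, Col18a1, Col20a1 and the untested genes lie near or under the median of all probe sets, which limits their directions.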
